A study of Mus musculus with 19 samples.

Results

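The genes described here act in homologous recombination and in the Fanconi anemia pathway, and were chosen as 40 listed gene symbols, 1 probe set each, out of 18193 named genes on the array. Of the 40, 38 were matched to a probe set, and Xrcc2 and Rbbp8 were not analysed here. A gene was tested where its probe set reached the median of its own array in at least 3 of the 19 arrays, which 12148 genes did, among them 37 of the 40. Bard1, the binding partner of BRCA1, did not pass: its group means lay between 1.66 and 2.13, under the array medians of 2.44 to 2.57.

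The study profiled cells of the developing mouse cerebellum and tumors on 19 Affymetrix Mouse430+2 arrays, all of strain C57BL/6. Progenitors came as 4 arrays of Nestin+ cells (NEP), 4 of Math1+ cells (GNP, granule neuron progenitors) and 3 of cells sorted as CD133+ and Lin- (NSC). Tumor cells came as 4 arrays from Nestin-CreERT2/Ptch1C/C mice (NEP tumor) and 4 from Math1-CreERT2/Ptch1C/C mice (GNP tumor). Ptch1 is the Hedgehog receptor that restrains the pathway, and the Cre in each tumor model is driven by the promoter of the gene that names it. The labels give no age and do not say whether arrays of a group came from separate mice, so p-values measure the spread between these arrays only, which may be technical. All values are log2 signals, so a difference of 1 is a doubling.

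Homologous recombination mends a double-strand break by copying the sister chromatid, and so works mainly in S and G2 phase. The MRE11 complex senses and trims the ends, BRCA1, PALB2 and BRCA2 act before strand exchange, RAD54 proteins help strand exchange, and helicases and nucleases such as BLM and MUS81-EME1 take the joined molecules apart. The Fanconi core complex attaches ubiquitin to FANCD2 and FANCI at crosslinks, and the kinases ATM and ATR signal the damage to CHK2 and CHK1. Many of these genes are transcribed with the cell cycle, so each was also set against proliferation genes. Granule neuron progenitors are among the fastest dividing cells of the young brain, and medulloblastoma can arise from them.

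Checks of the labels gave a mixed picture. In the progenitors Nes, the gene of Nestin, read 5.65 to 6.06 in NEP and 3.23 to 4.01 in GNP, and Atoh1, the gene of Math1, read 2.38 to 5.67 in NEP and 8.77 to 8.96 in GNP. The NSC arrays had Atoh1 between 8.92 and 8.94, as high as GNP, and their Prom1 (CD133) of 7.95 to 8.17 lay above GNP but at or below the NEP range of 8.17 to 8.85. In the tumors Atoh1 was higher in NEP tumor, at 10.31 to 10.67, than in GNP tumor, at 9.38 to 9.45, and Nes read 6.84, 6.80, 5.17 and 6.04 in NEP tumor arrays 1 to 4, array 3 falling within the GNP tumor range of 5.12 to 5.38. Ptch1 read 11.18 to 11.59 in the 8 tumor arrays against 10.17 to 10.90 in the progenitors; whether its probe set lies in the deleted part is not given in the sources used here, so it does not check the deletion. NEP arrays 1 and 2 stood apart from arrays 3 and 4. The median of the 15 microglia markers was 8.83, 9.05, 3.74 and 2.04 in NEP arrays 1 to 4 and 1.86 to 2.11 in GNP, and that of the 15 pericyte, fibroblast and meningeal markers was 8.84, 8.77, 6.63 and 5.33 against 2.33 to 3.07. Counts of members called in NEP are therefore given with all 4 arrays and with arrays 3 and 4 only.

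By group means, most of the repair genes tested were lowest in NEP. Of the 37 members, 25 had their lowest group mean in NEP, 5 in GNP tumor, 4 in NSC, 2 in NEP tumor and 1 in GNP. The highest mean was in GNP for 19 members, in NEP tumor for 9, in NSC for 6, in GNP tumor for 2 and in NEP for 1. Neighbouring groups in these orders often overlapped, as the values by array below show, and NEP against GNP was the widest gap. Lowest and highest groups were not counted over all genes, so these counts have no background and are a description only.

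**Figure D1:**
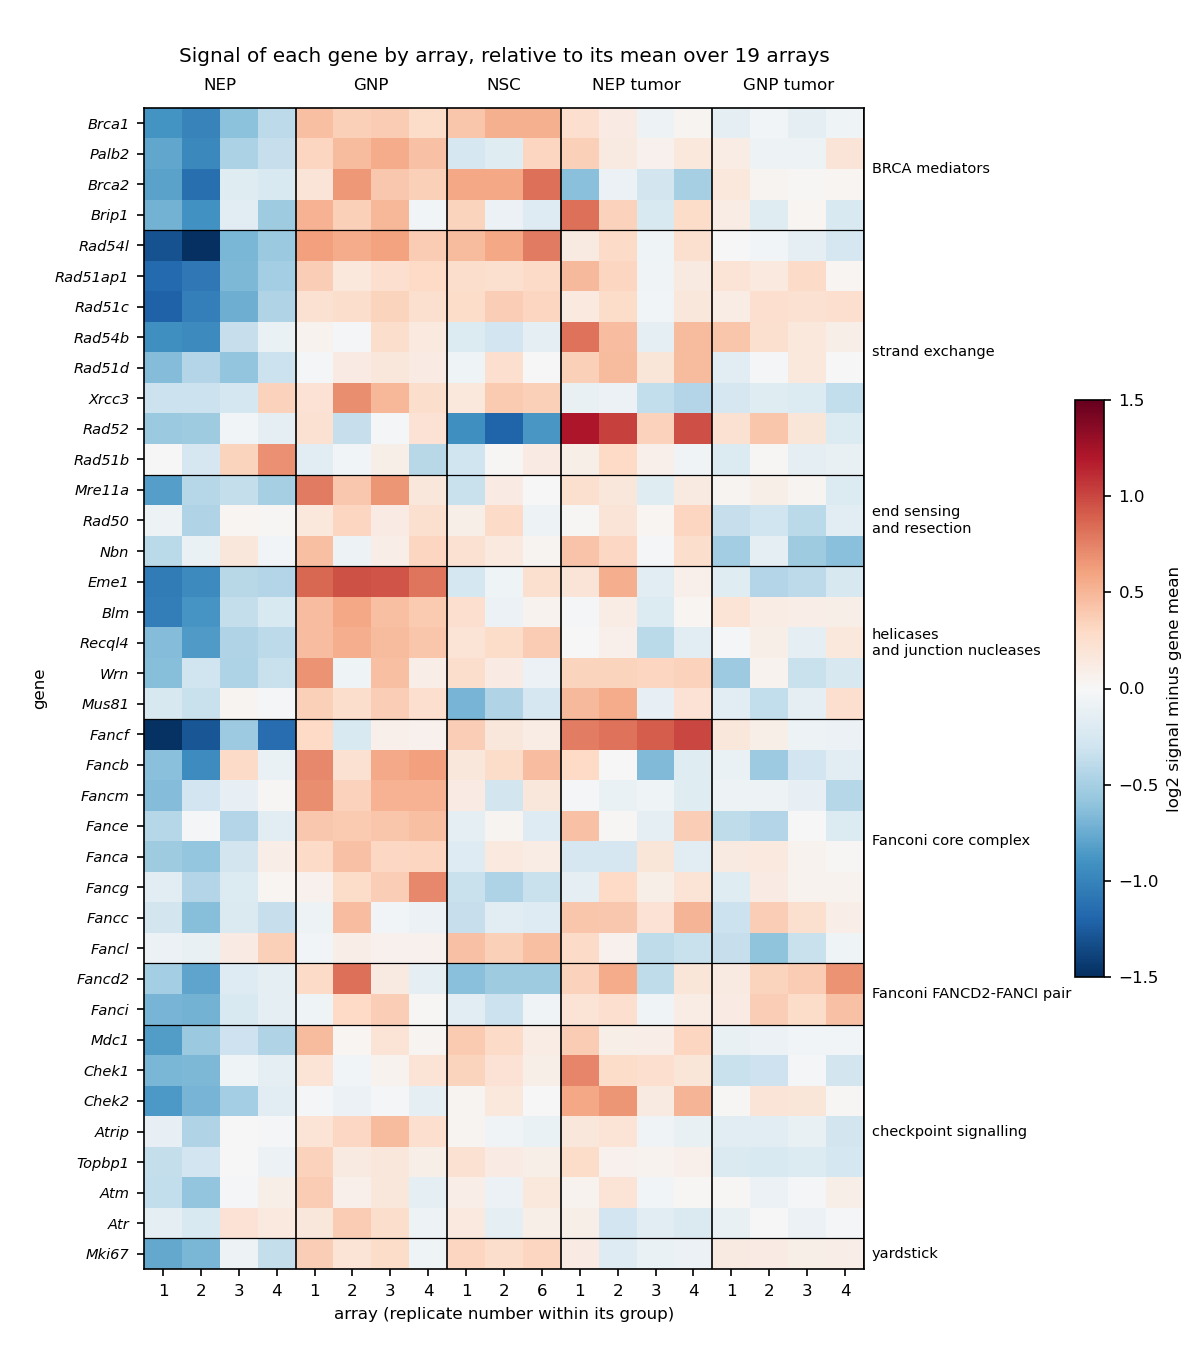
Log2 signal of the 37 repair genes and Mki67 (rows, by role) on the 19 arrays (columns, by group), minus the mean of each gene over the 19 arrays. Blue marks values below that mean and red above; NEP arrays are mostly blue, with arrays 1 and 2 deeper than 3 and 4, and Fancf is reddest in the 4 NEP tumor arrays.

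The yardstick for cell division was a score, the mean log2 signal of 57 proliferation genes (28 of S phase and 29 of mitosis). It was 8.27 ± 0.264 (SD, n = 4) in NEP, 9.13 ± 0.0802 (n = 4) in GNP, 9.07 ± 0.00565 (n = 3) in NSC, 8.90 ± 0.112 (n = 4) in NEP tumor and 8.90 ± 0.0223 (n = 4) in GNP tumor. NEP thus lay 0.86 below GNP, with no overlap of arrays (exact permutation test, two-sided, p = 0.0286, the smallest that 4 against 4 can give, and 0.0571 adjusted over the 4 tests of this kind). Between the tumors the score differed by 0.0063 (exact permutation p = 0.971, adjusted 0.971). Mki67, which encodes the proliferation marker Ki-67, read 10.18, 10.26, 10.87 and 10.59 in NEP, and 11.32, 11.15, 11.22 and 10.88 in GNP. The NEP arrays all lay below the GNP arrays, though the closest nearly touched, and the mean difference was -0.67 (exact permutation p = 0.0286, adjusted 0.0571). Mki67 was 11.27, 11.21 and 11.27 in NSC, 11.06, 10.75, 10.85 and 10.86 in NEP tumor and 11.08, 11.07, 11.03 and 11.04 in GNP tumor. The tumors overlapped in Mki67 and differed by -0.18 (exact permutation p = 0.0857, adjusted 0.114).

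In NEP against GNP, 32 of the 37 repair genes were lower and 0 were higher at an adjusted p below 0.05 (limma, Benjamini-Hochberg over 12148 genes). Of all genes tested, 39.9% were called lower and 29.6% higher, so the share lower among the repair genes was well above the background. Their median difference was -0.68, against -0.11 over all genes tested, and the middle of their range ran from -1.03 to -0.45. In 29 of the 37 every NEP array lay below every GNP array, which held for 32.7% of all genes. All 57 proliferation genes were lower too, with a median of -0.82. With NEP arrays 3 and 4 only, 22 members were lower and 1, Rad51b, was higher, where 33.2% and 27.1% of all genes were, and the members' median was -0.44. The fit took 1 spread per gene over all 5 groups, while the score spread more in NEP (SD 0.264) than in GNP (SD 0.0802) or any other group. The limma p-values of comparisons with NEP may therefore be too small. In bulk samples such as these, fewer cells that express a gene and less RNA per cell cannot be told apart.

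By role, all 4 BRCA mediators tested were lower in NEP than in GNP. Brca1, whose protein acts in resection, read 7.60, 7.50, 7.88 and 8.11 in NEP and 8.95, 8.85, 8.88 and 8.77 in GNP. The 2 groups were well apart, at 2.13-fold lower in NEP (log2 difference -1.09, SE 0.11, limma adjusted p = 1.44e-07). Brca2, a binding partner of PALB2, read 5.91, 5.58, 6.53 and 6.49 in NEP and 6.90, 7.36, 7.11 and 7.07 in GNP, again without overlap (-0.98, SE 0.18, limma adjusted p = 0.00011). Palb2, which bridges BRCA1 and BRCA2, and Brip1, a helicase bound to BRCA1, were lower by similar amounts, at -1.09 and -0.92. All 4 were also lower with NEP arrays 3 and 4 only.

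Among the 8 strand exchange genes, 6 were lower and 2 were not called. Rad54l, a motor protein that drives strand invasion, read 5.50, 5.21, 6.11 and 6.24 in NEP and 7.41, 7.36, 7.40 and 7.18 in GNP. Its difference of -1.57 (SE 0.17, limma adjusted p = 5.02e-07), or 2.97-fold, separated the 2 groups without overlap. Rad51ap1 was lower by a log2 difference of -1.12 (SE 0.13, limma adjusted p = 1.12e-06). Rad51c was likewise at -1.12 (SE 0.12, limma adjusted p = 3.58e-07). Rad54b, Rad51d and Xrcc3 were lower by between -0.69 and -0.56. Rad51b, with a difference of 0.33, and Rad52, with -0.34, did not pass the test with all 4 NEP arrays. When NEP was arrays 3 and 4 only, Rad54b (-0.34, limma adjusted p = 0.118) and Xrcc3 (-0.38, limma adjusted p = 0.0583) lost the call, which left 4 of the 8 lower, and Rad51b was higher (0.65, limma adjusted p = 0.00133).

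The 5 helicases and junction nucleases were all lower. Eme1, the partner subunit of the MUS81 nuclease, had the largest difference of any member: 4.17, 4.27, 4.80 and 4.78 in NEP against 6.08, 6.17, 6.16 and 6.02 in GNP. Every GNP array was above 6 and every NEP array below 5, a 3.04-fold difference (log2 -1.60, SE 0.16, limma adjusted p = 1.68e-07). Mus81 itself was lower by -0.45, the smallest of this role, while Blm and Recql4 were at -1.10 and -1.06 and Wrn at -0.72. Of the 3 end sensing genes, Mre11a, the nuclease, read 5.01, 5.41, 5.48 and 5.35 in NEP and 6.62, 6.25, 6.50 and 6.01 in GNP, without overlap (-1.03, SE 0.14, limma adjusted p = 7.39e-06). Its partners in the same complex were closer: Rad50 was lower by -0.33, and Nbn, at -0.30, was not called. From NEP arrays 3 and 4 alone, 4 of the 5 helicases and nucleases and 1 of the 3 end sensing genes, Mre11a, were lower, since Mus81 (-0.30, limma adjusted p = 0.156) and Rad50 (-0.19, limma adjusted p = 0.148) lost the call.

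Of the 8 Fanconi core genes 7 were lower and Fancl was not. Fancf, an adaptor of the core complex, read 5.37, 5.58, 6.31 and 5.71 in NEP and 7.15, 6.63, 6.93 and 6.92 in GNP. The groups did not overlap, and the difference was -1.17 (SE 0.16, limma adjusted p = 4.87e-06). Fancl, the ubiquitin ligase of the complex, differed by 0.02. The target pair was lower: Fancd2 read 3.69, 3.40, 4.00 and 4.05 in NEP and 4.49, 5.02, 4.33 and 4.06 in GNP, which nearly touch (-0.69, SE 0.21, limma adjusted p = 0.00779), and Fanci was at -0.60. Of the 8 core genes 5 were lower with NEP arrays 3 and 4 only, as was Fanci of the pair; Fancb (-0.44, limma adjusted p = 0.0805), Fancc (-0.34, limma adjusted p = 0.101) and Fancd2 (-0.45, limma adjusted p = 0.114) lost the call.

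Checkpoint genes had the smallest median difference of the roles with 4 or more genes tested, -0.46, with 6 of 7 lower. Mdc1, a scaffold that binds marked chromatin beside breaks, read 5.77, 6.06, 6.30 and 6.16 in NEP and 7.08, 6.64, 6.81 and 6.65 in GNP, without overlap (-0.72, SE 0.12, limma adjusted p = 4.13e-05). Atm, the kinase at double-strand breaks, read 7.38, 7.16, 7.73 and 7.84 in NEP and 8.13, 7.83, 7.92 and 7.60 in GNP. These ranges overlap, and the difference of -0.34 (SE 0.13, limma adjusted p = 0.0303) was 1.27-fold. Atr, the kinase at stalled forks, was not called at -0.19, while its partner Atrip was at -0.46 and its activator Topbp1 at -0.37. Of the 7, 3 were lower with NEP arrays 3 and 4 only (Mdc1, Atrip and Topbp1), while Atm at -0.08, Chek1 at -0.20 and Chek2 at -0.26 were not called (limma adjusted p = 0.571, 0.216 and 0.085).

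**Figure D2:**
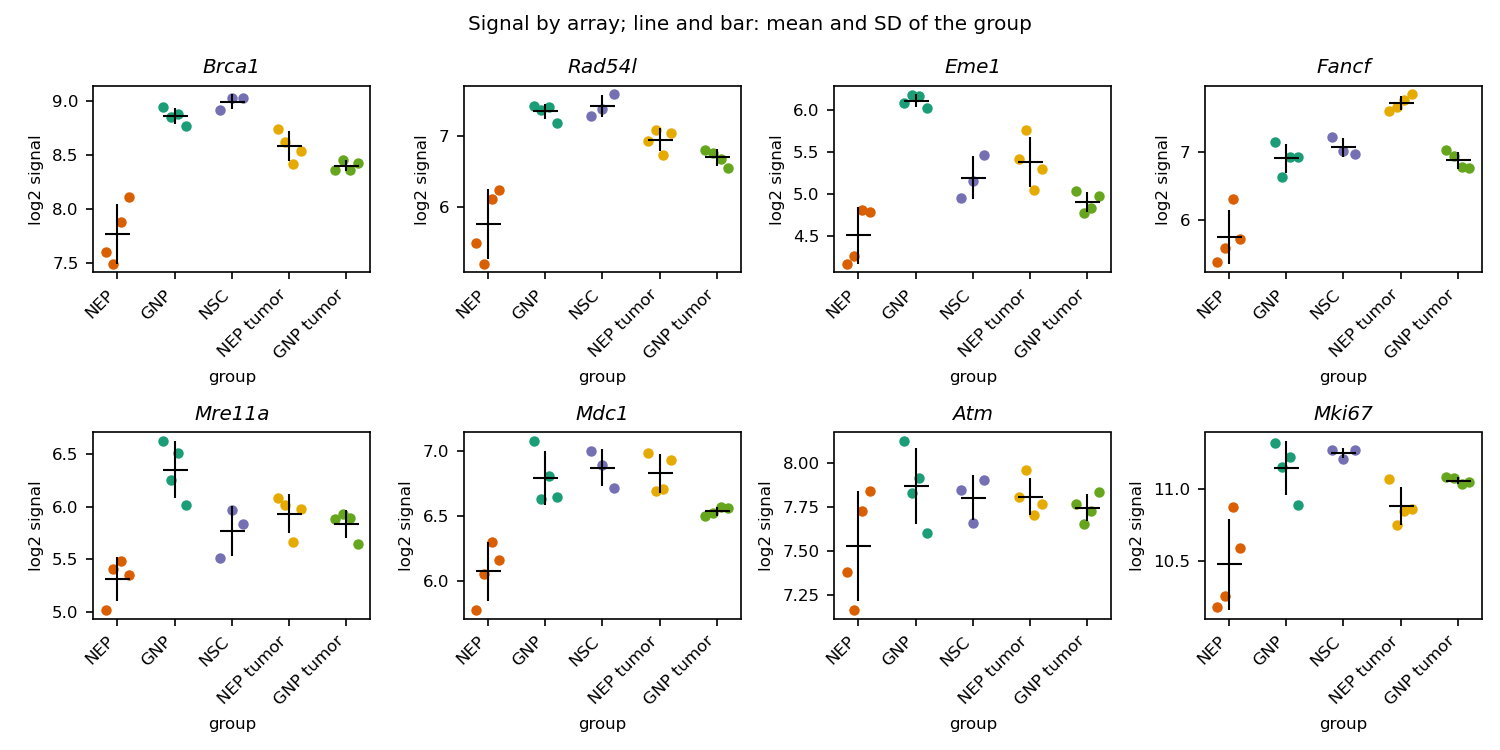
Log2 signal of 7 repair genes and Mki67 on each array, by group, with a separate vertical scale for each gene; points are arrays, and the line and bar are the group mean and SD. NEP and GNP do not overlap in any panel but Atm, and Fancf in NEP tumor lies above every other group.

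Set against the proliferation score, the members fell on both sides of it. Each member's log2 signal was taken relative to the score of the same array and fitted again, which asks whether it differed by more or by less than the proliferation genes. Since the score itself was lower in NEP, most genes come out relatively higher: 79.0% of all genes tested were called higher and 5.66% lower. Of the 37 members, 14 were higher, 8 lower and the remaining 15 were not told apart from the score. The proliferation genes, each measured against the others, gave 15 higher and 11 lower of 57, so such departures were found among them as well.

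Eme1 and Rad54l were lower in NEP well beyond the proliferation genes, with relative differences of -0.75 (SE 0.12, limma adjusted p = 2.28e-05) and -0.72 (SE 0.12, limma adjusted p = 3.84e-05). Both remained so in 11 of 12 other settings and in each of the 8 fits that left out 1 array; the exception was the score as a covariate, where they were at -0.51 and -0.28 and not called (limma adjusted p = 0.228 and 0.507). With NEP arrays 3 and 4 only they were at -0.67 and -0.52. With the probe sets used, the other 6 exceeded the score by little. They were Fancf (-0.31), Rad51ap1 (-0.27), Rad51c (-0.26), Blm (-0.25), Brca1 (-0.23) and Recql4 (-0.20). Those 6 were called in 6 or 7 of 11 or 12 other settings and in 3 to 7 of the 8 fits without 1 array. For Fancf the mean of its probe sets turned the sign to 0.054. Other probe sets passing the filter had NEP minus GNP at -1.60 in Rad51c, -1.77 and -1.56 in Brca1, and -1.75, -1.54 and -1.31 in Rad51ap1. That of Fancf was at -0.76, and Blm and Recql4 had no other. Brca2, Palb2, Brip1, Mre11a, Wrn, Mdc1 and Fancd2 were among the members not told apart from the score.

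Of the 14 members that were lower by less than the score, or not lower, 8 were checkpoint or end sensing genes. Of the 7 checkpoint genes 6 were relatively higher (Atr, Atm, Topbp1, Atrip, Chek2 and Chek1), the exception being Mdc1. So were 2 of 3 end sensing genes. Both shares were not far from the 79.0% of all genes. The checkpoint median of 0.39 and the end sensing median of 0.52 lay below the 0.74 over all genes. Other probe sets of Chek1 passing the filter had NEP minus GNP at -0.78, close to the score at -0.86, and at -0.38 and -0.17. The largest were Rad51b at 1.18 (SE 0.13, limma adjusted p = 3.89e-07), Fancl at 0.88 (SE 0.13, limma adjusted p = 9.8e-06), Atr at 0.67, Nbn at 0.56 and Rad50 at 0.52. Rad52, Fancc, Mus81 and Fanci completed the 14. As a share of the members this was below the 79.0% of all genes that were relatively higher.

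Which side held more members depended on the yardstick and the scaling. With the signals quantile normalized a second time 9 members were higher and 13 lower, where 70.5% and 8.4% of all genes were. With Mki67 alone as the yardstick 6 were higher and 10 lower, where 63.4% and 7.24% were. With only NEP and GNP in the fit 13 were higher and 2 lower (73.4% and 4.87% of all genes), and with the mitosis genes alone as the yardstick 14 and 2 (78.5% and 5.09%), the 2 being Eme1 and Rad54l both times. With NEP arrays 3 and 4 only 11 were higher and 3 lower (68.4% and 6.45%), the third being Recql4. With the score as a covariate 1 member, Rad51b, was higher and 0 were lower (13.2% and 10.6%).

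**Figure D3:**
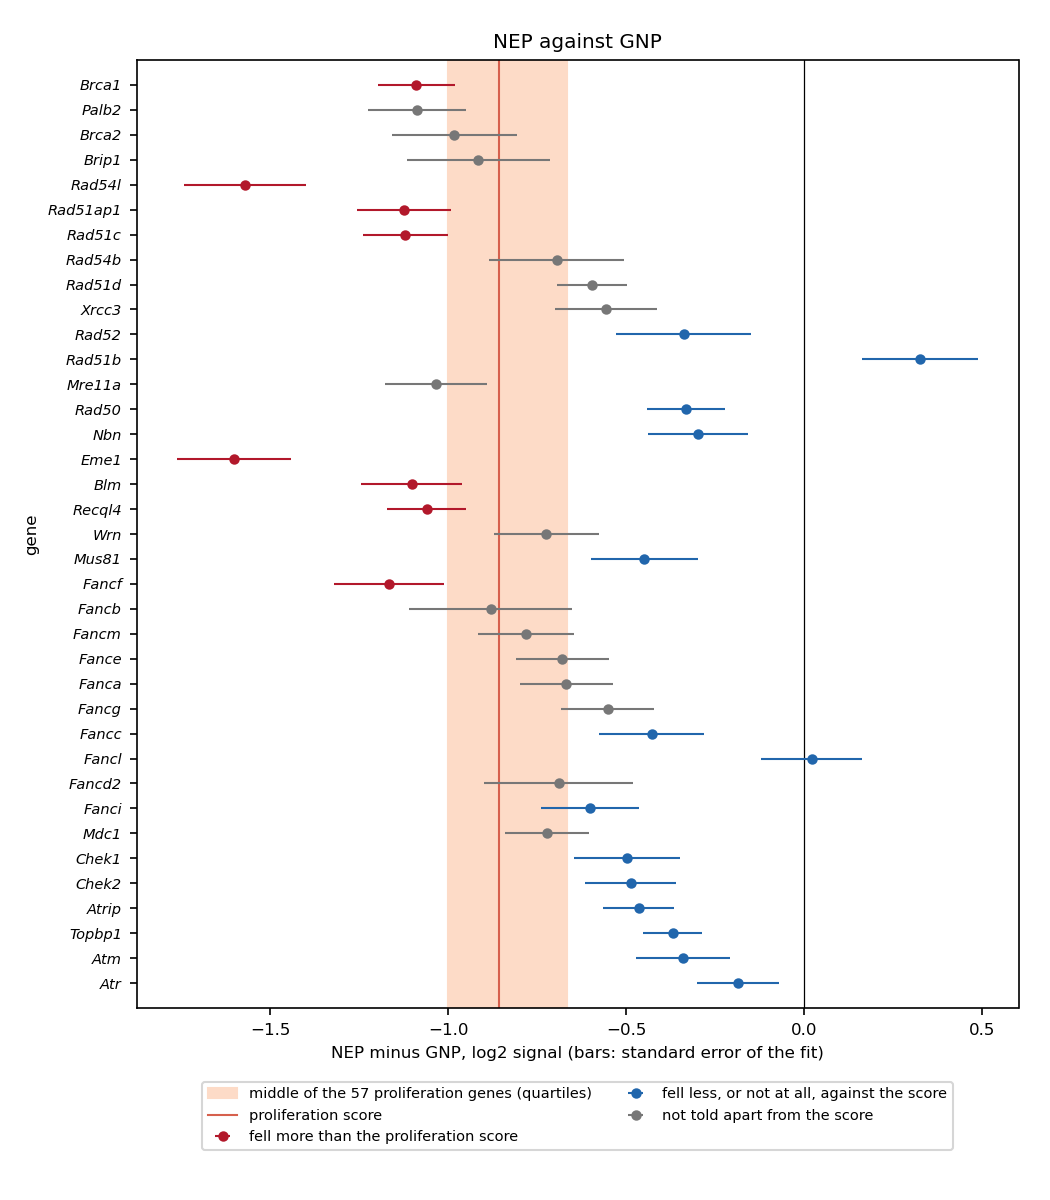
Difference between NEP and GNP in log2 signal for each of the 37 repair genes, with the standard error of the fit, ordered by role. The red line is the proliferation score at -0.86 and the band the quartiles of the 57 proliferation genes; 10 members lie left of the band, Eme1 and Rad54l farthest, 10 lie in it and 17 to its right, and the checkpoint genes at the bottom lie mostly to its right.

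Markers of other cells moved with this comparison. All 15 microglia markers, 14 of 15 pericyte, fibroblast and meningeal markers and all 12 endothelial markers were higher in NEP than in GNP. Of 14 markers of differentiating neurons 11 were lower and 1 higher. In GNP 12 to 14 of the 15 microglia markers lay below the median of their array. The median of the repair genes was 4.59, 4.51, 4.88 and 4.82 in NEP arrays 1 to 4 and 5.68 to 5.83 in GNP, so arrays 3 and 4, with the lower microglia medians, were also nearer to GNP in the repair genes but still below it. The part of those cells in the repair gene differences was not tested.

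Other genes of these pathways were also mostly lower in NEP. Of 51 such genes listed, 45 were tested: 35 were lower in NEP than in GNP and 3 higher, with a median of -0.44. Those were 77.8% and 6.67%, where 39.9% and 29.6% of all genes were. The largest differences were Mnd1, a cofactor of meiotic strand exchange, at -1.41, Exo1, a resection nuclease, at -1.31, and Rtel1, a helicase that dismantles joined strands, at -1.22. Hus1, of the checkpoint clamp, was higher at 0.66, Zswim7 at 0.61 and Rad17, the clamp loader, at 0.27. Relative to the proliferation score 32 of the 45 were higher and 3 lower (71.1% and 6.67%), near the 79.0% and 5.66% of all genes.

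Because many repair genes moved with the proliferation genes, their promoters were searched for the E2F and CHR letter patterns of cell cycle genes, and for CCAAT. RefSeq promoters of build GRCm38.p6, from 250 bases before to 50 after the start site, were matched for 31 of 38 members. E2F patterns (TTTCCCGC, TTTGGCGC, TTTCGCGC or TTTGGGCGC, on either strand) were found in 7 of the 31 (22.6%), in 10 of 23 S phase genes (43.5%), in 1 of 24 mitosis genes (4.17%) and in 2.23% of 27025 promoters in all. The CHR pattern of mitosis genes (TTTGAA, either strand) was in 3 of 31 members (9.68%), in 17 of 24 mitosis genes (70.8%) and in 20.2% of all promoters. CCAAT, on either strand, was in 61.3% of member promoters and 41.1% of all. These shares are a description without a test, and a match is not a bound site. The sequences show the E2F letters of 5 repair genes, and for contrast the 2 CHR matches of Mki67, each as 100 bases 5′ to 3′ on the gene's strand with the match in capitals. They lie at chr5:150522421-150522520 (+) for Brca2, chr5:110839783-110839882 (+) for Chek2, chr9:103305127-103305226 (+) for Topbp1, chr4:43010302-43010401 (-) for Fancg, chr17:35841398-35841497 (+) for Mdc1 and chr7:135716430-135716529 (-) for Mki67.
Brca2: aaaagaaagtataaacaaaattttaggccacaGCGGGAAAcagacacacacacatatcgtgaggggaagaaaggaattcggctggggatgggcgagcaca
Chek2: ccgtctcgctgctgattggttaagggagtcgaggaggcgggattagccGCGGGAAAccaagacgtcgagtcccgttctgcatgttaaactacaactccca
Topbp1: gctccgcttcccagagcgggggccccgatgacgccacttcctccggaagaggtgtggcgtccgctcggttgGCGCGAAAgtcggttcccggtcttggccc
Fancg: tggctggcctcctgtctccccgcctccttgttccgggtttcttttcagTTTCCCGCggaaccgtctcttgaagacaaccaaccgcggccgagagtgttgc
Mdc1: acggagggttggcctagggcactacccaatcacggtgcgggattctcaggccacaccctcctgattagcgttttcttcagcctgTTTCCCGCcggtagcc
Mki67: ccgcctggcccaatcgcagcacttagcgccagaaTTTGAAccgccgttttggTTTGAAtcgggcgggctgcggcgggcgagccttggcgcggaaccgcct
In Brca2, Chek2 and Topbp1 the E2F letters stand on the opposite strand, so they read here as their reverse complement. Among these 5, Brca2, Fancg and Mdc1 were not told apart from the score in NEP against GNP, while Topbp1 and Chek2 were lower by less than it. Rad51c, not shown, also held E2F letters and was lower by more than the score (-0.26). Bard1 held them too but was not tested.

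NEP and NSC are both labelled as progenitors of the cerebellum, and the low repair gene signal of NEP was set against NSC. Here 21 members were lower in NEP than in NSC and 1 was higher, where 27.6% and 30.9% of all genes were called, and the members' median was -0.44 against 0.02 for all genes. The largest differences were in Rad54l (-1.64, SE 0.19, limma adjusted p = 1.23e-06), Fancf (-1.33), Brca2 (-1.25), Brca1 (-1.22) and Rad51c (-1.17). Rad54l read 7.27, 7.38 and 7.57 in NSC, Fancf 7.22, 7.02 and 6.97, Brca2 7.29, 7.30 and 7.54, and Brca1 8.91, 9.03 and 9.03. All of these lay above every NEP array, as did the NSC arrays in 18 of the 37 members (27.2% of all genes). Rad52, which anneals single strands, was the member higher in NEP, at 0.68 (SE 0.20, limma adjusted p = 0.00897). It lost that call with a second quantile normalization (0.33) and with the mean of its probe sets (0.36). Against NSC, NEP arrays 3 and 4 alone had 13 members lower and 3 higher (Rad52, Rad51b and Mus81), where 23.9% and 28.9% of all genes were, and the members' median was -0.21; Eme1, Mre11a, Brip1, Chek1, Topbp1, Xrcc3, Fanca and Fancb lost the call. Markers of other cells differed too: 9 of 11 stem cell and radial glia markers were higher in NEP than in NSC, 10 of 14 markers of differentiating neurons and all 10 granule neuron progenitor markers were lower, and 1 of 15 microglia markers was called, with a median of 2.19. Of the neuron markers 3 were higher. The part of these other cells in the result was not tested.

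Relative to the proliferation score, 20 members were higher and 6 lower in NEP than in NSC, where 81.0% and 4.22% of all genes were. The lower ones were led by Rad54l (-0.84), Fancf (-0.53), Brca2 (-0.45), Brca1 (-0.42) and Rad51c (-0.37), and the higher ones by Rad52 (1.48), Mus81 (1.13), Rad51b (1.04), Fancg (0.98) and Fancd2 (0.95). For Brca1 the sign turned to 0.16 with the mean of its probe sets. Without NEP arrays 1 and 2, 17 were higher and 4 lower (70.1% and 5.05% of all genes), and Brca2 lost its call (-0.28, limma adjusted p = 0.143). The titles carry a number that NEP and GNP arrays share and another that NSC and tumor arrays share; what it stands for is not given in the sources used here, and in comparisons across it the number and the group cannot be told apart.

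GNP and NSC, with similar proliferation scores, differed in fewer repair genes. Here 10 members were higher in GNP and 0 lower, against 23.2% and 13.1% of all genes, so the share called higher was near the background. In 15 of the 37 every GNP array lay above every NSC array, which held for 30.1% of all genes. Rad52 had the largest difference at 1.02 (SE 0.20, limma adjusted p = 0.000983), followed by Eme1 at 0.92, Fancd2 at 0.84, Mus81 at 0.78 and Fancg at 0.73. Eme1 read 4.96, 5.16 and 5.46 in NSC, between NEP and GNP. Fancd2 read 3.57, 3.67 and 3.66 in NSC, within its NEP range, and Mre11a read 5.51, 5.97 and 5.84, all below the lowest GNP array. Mdc1 at 7.01, 6.89 and 6.72 and Atm at 7.85, 7.66 and 7.90 overlapped GNP. Relative to the score, 9 were higher and 1 lower, where 14.0% and 11.3% of all genes were. Rad52 (0.96), Eme1 (0.86), Fancd2 (0.78), Mus81 (0.72) and Fancg (0.68) led again, and Fancl was the lower one (-0.43). In level, 7 of the 45 other pathway genes were higher, led by Rtel1 (1.04), Helq (0.87) and Uimc1 (0.55), and 1, Rmi2 (-0.44), was lower. Those were 15.6% and 2.22%, below the 23.2% and 13.1% of all genes. All 12 endothelial markers, 13 of 15 pericyte, fibroblast and meningeal markers and 8 of 11 stem cell and radial glia markers were lower in GNP than in NSC, and 7 of 14 neuron markers were higher; their part in these differences was not tested.

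The tumors did not carry over the gap between the progenitors. In NEP tumor against GNP tumor 11 members were higher and 0 lower, against 15.5% and 8.1% of all genes, and the members' median was 0.22. In 10 members every NEP tumor array lay above every GNP tumor array (19.9% of all genes). Fancf, whose NEP tumor values were its highest of all 19 arrays, read 7.62, 7.67, 7.77 and 7.86 in NEP tumor and 7.03, 6.94, 6.78 and 6.77 in GNP tumor (0.85, SE 0.16, limma adjusted p = 0.000963). Rad52 followed at 0.73 (SE 0.19, limma adjusted p = 0.0105). Nbn, the sensor subunit that recruits ATM, read 7.57, 7.45, 7.12 and 7.41 in NEP tumor and 6.62, 6.99, 6.61 and 6.52 in GNP tumor, without overlap (0.70, SE 0.14, limma adjusted p = 0.00179). Wrn and Chek1 were each higher by 0.60. Eme1 was 5.42, 5.76, 5.05 and 5.29 against 5.03, 4.77, 4.83 and 4.98, a small step up that passed (0.47, SE 0.16, limma adjusted p = 0.0411).

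NEP tumor arrays also differed among themselves, array 3 being lowest in Eme1, Nbn and Rad52. With NEP tumor arrays 3 and 4 only, 4 members were higher in place of 11 (10.6% of all genes in place of 15.5%), and with a second quantile normalization 6 were (10.9% of all genes). Chek1 and Rad52 lost their calls with arrays 3 and 4 only, and Chek1 also with the mean of its probe sets. The microglia median was 3.82, 3.61, 5.16 and 4.45 in NEP tumor arrays 1 to 4 and 5.11 to 5.25 in GNP tumor. Of the granule neuron progenitor markers 5 of 10 were higher in NEP tumor. Of the 11 stem cell and radial glia markers 4 were higher and 1 lower. The part of other cells in these differences was not tested.

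Brca2, Brca1 and Rad54l did not pass between the tumors. Brca2 was 6.09, 6.63, 6.43 and 6.22 in NEP tumor and 6.87, 6.75, 6.73 and 6.75 in GNP tumor, lower in every array of NEP tumor but not called (-0.43, SE 0.18, limma adjusted p = 0.0876). Brca1 was 8.74, 8.62, 8.42 and 8.54 against 8.36, 8.46, 8.36 and 8.43, which overlap (0.18, limma adjusted p = 0.253). Rad54l was 6.93, 7.08, 6.73 and 7.03 against 6.80, 6.76, 6.67 and 6.55, with a slight overlap (0.25, limma adjusted p = 0.327). None of the 4 BRCA mediators was called. Fancd2 was 4.54, 4.76, 3.81 and 4.38 against 4.34, 4.53, 4.57 and 4.87, and Atm was 7.81, 7.96, 7.71 and 7.77 against 7.77, 7.66, 7.73 and 7.84, both overlapping. Mre11a was 6.08, 6.01, 5.66 and 5.97 against 5.88, 5.93, 5.89 and 5.64, and Mdc1 was 6.99, 6.70, 6.71 and 6.93 against 6.50, 6.52, 6.57 and 6.57. The Mdc1 arrays did not overlap, yet its difference of 0.29 missed the threshold (limma adjusted p = 0.0827).

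Since the score was alike in the tumors, the relative fit changed little: 9 members were higher and 0 lower, where 10.1% and 4.82% of all genes were. The 2 parts of the score leaned opposite ways, however. In level the S phase genes had a median of 0.17 and the mitosis genes of -0.12, against 0.22 for the members. Of the 28 S phase genes 4 were called higher and 1 lower, and of the 29 mitosis genes 1 and 2. The 9 members were led by Fancf (0.84), Rad52 (0.72), Nbn (0.70), Wrn (0.59) and Chek1 (0.59). Fancf and Nbn were called in all 13 other settings and in all 8 fits without 1 array. With Mki67 alone as the yardstick, which was itself lower in NEP tumor by -0.18, 17 members were higher and 18.8% of all genes were. In level, 10 of the 45 other pathway genes were higher, led by Rad1 (0.55), Gen1 (0.52) and Mnd1 (0.48), and 1, Rtel1 (-0.54), was lower. Those were 22.2% and 2.22%, where 15.5% and 8.1% of all genes were.

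Whether the difference between tumors departs from the difference between progenitors was tested directly, as the first minus the second. It was higher for 30 members and lower for 0, against 36.7% and 25.2% of all genes, with a median of 0.91 against 0.15 over all genes. Each of the 2 differences lies within 1 title number. The largest were Eme1 (2.08, SE 0.23, limma adjusted p = 8.48e-07), Fancf (2.01, SE 0.22, limma adjusted p = 8.24e-07), Rad54l (1.82), Wrn (1.32) and Brip1 (1.28). All 5 helicases and nucleases and all 3 end sensing genes were called, with 7 of 8 strand exchange genes and 7 of 8 core genes. Brca2, Rad51b, Fancl, Fancd2, Fanci, Atm and Atr were not called. Without NEP arrays 1 and 2, 26 members were higher and 0 lower, where 32.4% and 24.4% of all genes were, with a median of 0.65; Fanca, Fancb, Rad54b and Xrcc3 lost the call. In the same test with all arrays 13 of 15 microglia, 13 of 15 pericyte, fibroblast and meningeal and 11 of 12 endothelial markers were lower. Of the 14 neuron markers 12 were higher and 1 lower. The part of other cells in the result was not tested.

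Relative to the proliferation score, 4 members were higher and 5 lower in this test, where 6.38% and 66.3% of all genes were. Eme1 (1.21, SE 0.17, limma adjusted p = 1e-05), Fancf (1.15), Rad54l (0.96) and Brca1 (0.41) were higher. Rad51b (-0.97), Atr (-0.77), Fancl (-0.63), Atm (-0.46) and Fanci (-0.44) were lower. Without NEP arrays 1 and 2 there were 6 higher and 5 lower (7.63% and 57.0% of all genes). The count on each side moved with the scaling and the yardstick, as given in the closing section. In level, 35 of the 45 other pathway genes were higher, led by Exo1 (1.94), Mnd1 (1.89) and Gen1 (1.56), and 1, Hus1 (-0.30), was lower. Those were 77.8% and 2.22%, where 36.7% and 25.2% of all genes were.

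**Figure D4:**
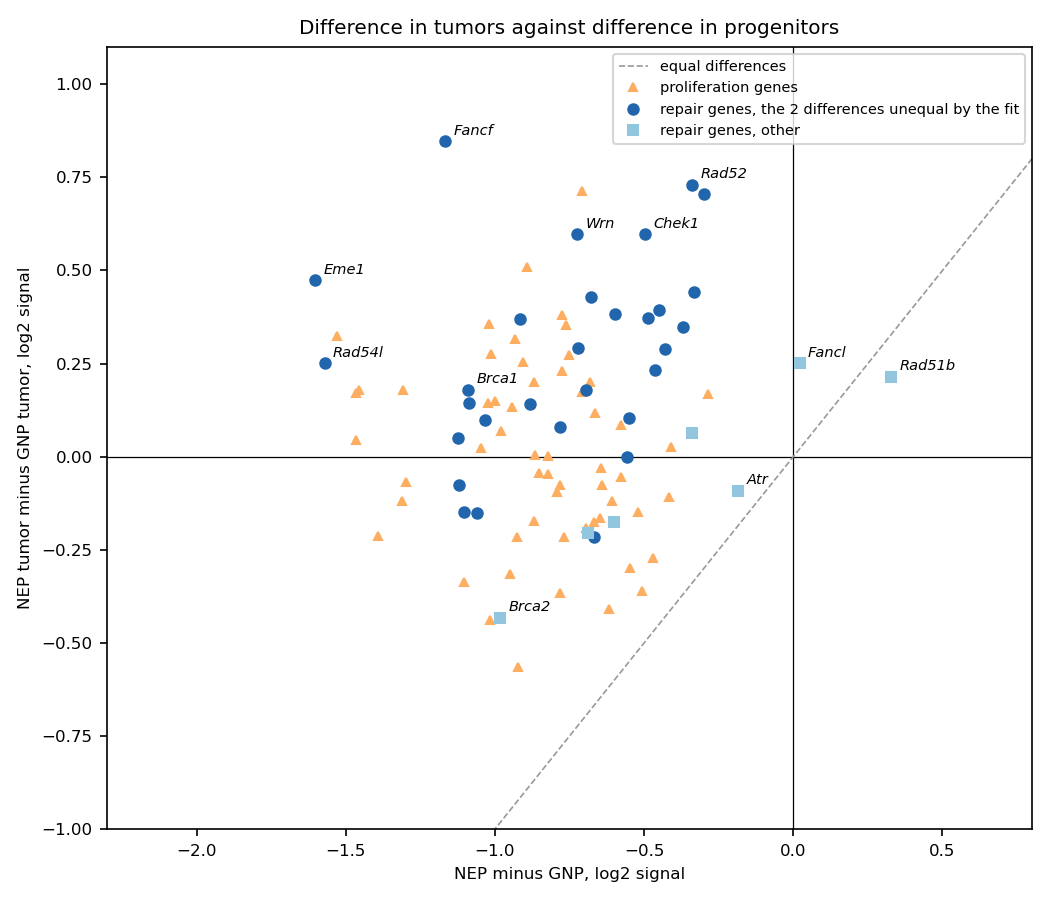
Difference between NEP tumor and GNP tumor (vertical) against the difference between NEP and GNP (horizontal), in log2 signal, for the repair genes (circles and squares) and the proliferation genes (triangles). On the dashed line both differences would be equal; Fancf, Eme1 and Rad54l lie farthest from it at the upper left, and the proliferation genes lie above it too.

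Against their own progenitors the tumors went opposite ways. In NEP tumor 27 members were higher than in NEP and 0 lower, against 36.2% and 32.6% of all genes, with a median of 0.59, and in 18 every NEP tumor array lay above every NEP array (28.7% of all genes). Fancf led at 1.98 (SE 0.16, limma adjusted p = 6.86e-09), a 3.96-fold rise from the lowest group to the highest. Rad52 (1.20), Rad54l (1.18), Rad51ap1 (1.07) and Chek2 (1.03), the kinase downstream of ATM, came next. Against NEP arrays 3 and 4 alone, 21 members were higher and 2, Rad51b (-0.40) and Atr (-0.33), were lower, where 31.2% and 30.4% of all genes were, and the members' median was 0.35. From NEP to NEP tumor 13 of 15 pericyte, fibroblast and meningeal markers, 10 of 12 endothelial, 9 of 11 stem cell and radial glia and 4 of 15 microglia markers were lower, and 11 of 14 neuron markers and 8 of 10 granule neuron progenitor markers were higher. Called the other way were 1 pericyte, fibroblast and meningeal marker, 1 stem cell and radial glia marker and 2 neuron markers. In GNP tumor 18 members were lower than in GNP and 0 higher, against 31.4% and 18.5% of all genes, with a median of -0.35, and in 20 every GNP tumor array lay below every GNP array (32.9% of all genes). Eme1 led at -1.20 (SE 0.16, limma adjusted p = 9.3e-06), and Fancb (-0.81), Fancm (-0.69), Fance (-0.67) and Xrcc3 (-0.67) followed. All 3 end sensing genes and 5 of 8 core genes were lower, against 2 of 8 strand exchange genes. From GNP to GNP tumor 9 of 15 microglia markers (median 3.66), 7 of 15 pericyte, fibroblast and meningeal and 7 of 11 stem cell and radial glia markers were higher. Of those 11 stem cell and radial glia markers 3 were lower. The part of other cells in either change was not tested. These comparisons cross the title numbers, so number and group cannot be told apart in them.

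Relative to the proliferation score, 7 members were higher and 13 lower in NEP tumor than in NEP, where 9.65% and 68.0% of all genes were. Against NEP arrays 3 and 4 alone, 7 were higher and 11 lower (11.5% and 54.4%). The side with more members turned with a second quantile normalization, to 17 higher and 6 lower (13.3% and 61.2% of all genes), and with Mki67 alone as the yardstick, to 14 and 4 (12.9% and 47.7%). Fancf (1.35), Rad52 (0.57), Rad54l (0.55), Rad51ap1 (0.44) and Chek2 (0.39) rose beyond the score, and Fancl (-0.79), Atr (-0.78), Xrcc3 (-0.75), Rad51b (-0.72) and Fancm (-0.46) were relatively lower, none of these 5 having passed in level with all NEP arrays. In GNP tumor against GNP, 2 were relatively higher and 9 lower, where 27.8% and 13.8% of all genes were. Here too the side turned, to 9 higher and 6 lower with the S phase genes alone as the yardstick (42.3% and 11.2% of all genes) and to 8 and 6 when the probe sets of each gene were averaged (33.2% and 11.9%). Eme1 (-0.98), Fancb (-0.58), Fancm (-0.46), Fance (-0.44) and Xrcc3 (-0.44) were lower, and Chek2 (0.40) and Fanci (0.38) higher. For Fancm the sign turned to 0.014 with the mean of its probe sets. In level, 29 of the 45 other pathway genes were higher and 2 lower in NEP tumor than in NEP (64.4% and 4.44%). Of all genes 36.2% and 32.6% were. Ube2t (1.36), Exo1 (1.14) and Gen1 (1.08) led, with Hus1 (-1.06) and Zswim7 (-0.65) lower. In GNP tumor against GNP 17 were lower and 5 higher (37.8% and 11.1%), where 31.4% and 18.5% of all genes were. Mnd1 (-0.94), Brcc3 (-0.82) and Exo1 (-0.80) were lowest and Uimc1 (0.40), Rev1 (0.32) and Mad2l2 (0.31) highest.

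Most other probe sets of these genes had the same direction. Of the 37 members tested, 26 have several probe sets. Of their other probe sets, 29 passed the filter, and 27 of these were lower in NEP than in GNP and 2 higher by their means.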

How the data were processed

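Each of the 19 arrays gave 1 sample in 5 groups, mapped from the labels; 100 ng of total RNA was amplified and labelled. The deposited values are log2 signals that the authors made with RMA, run in the Expression Console program of Affymetrix, per the submitters' processing notes; versions are not given in the sources used here. All arrays had the same mean. The values were used as deposited; array number limits precision. Of 45101 probe sets, 34945 had 1 gene symbol in the platform annotation, 932 several and 9160 none. For a gene with several probe sets the one of highest average signal was used. limma 3.58.1 (R 4.3.3) was fitted to 5 group means over all arrays, with Benjamini-Hochberg adjustment over 12148 genes and a threshold of 0.05, checked on simulated data. The relative fit subtracted the proliferation score, each proliferation gene being scored without itself. Named were the 5 called members with the largest differences per direction, in each fit and comparison, those against the majority, and up to 3 called other pathway genes; values by array were given for the member of each role with the largest difference between NEP and GNP, Brca1, Brca2, Fancd2, Atm and Mki67. Values by array for Nbn and members named as not called were added after their values were seen. Members, lists and settings were chosen with earlier results of these data known. Same-numbered arrays did not deviate together, so no pairing was used.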

Additional observations from a re-analysis of the deposited data

Results flagged for a closer look

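One array stood apart in 1 of the 44 combinations of gene and group examined, fewer than the 1 in 20 that chance gives: Mre11a read 5.64 in GNP tumor array 4, and 5.88 to 5.93 in the other 3.

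The difference between tumors departed from the difference between progenitors (limma, a test of the difference itself) in 30 members, led by Eme1 (2.08), Fancf (2.01), Rad54l (1.82), Wrn (1.32) and Brip1 (1.28). All 30 were higher, where 36.7% of all genes were called higher and 25.2% lower. Relative to the proliferation score the departures were Eme1 (1.21), Fancf (1.15), Rad54l (0.96), Brca1 (0.41), Rad51b (-0.97), Atr (-0.77), Fancl (-0.63), Atm (-0.46) and Fanci (-0.44). In that fit 6.38% of all genes were called higher and 66.3% lower.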

How the results depend on the processing

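Of the recomputed values for named genes, 1664 kept direction and side of the threshold, 111 lost the call and 3 reversed, all relative and with the mean of all probe sets: Fancf in NEP against GNP (0.054), Brca1 in NEP against NSC (0.16) and Fancm in GNP tumor against GNP (0.0142). The cause was not tested where none is given. The counts of members that follow show how the counts moved with the setting. Where no share of all genes is given for a setting, as for the 75th percentile filter, they cannot be set against a background. With a filter at the 75th percentile, which left 18 members, the counts called were 15 (NEP against GNP), 13 (NEP against NSC), 4 (GNP against NSC), 7 (between tumors), 14 (tumor against progenitor difference), 14 (NEP tumor against NEP) and 10 (GNP tumor against GNP), and relative to the score 14, 12, 5, 8 (between tumors), 8 (5 higher, reversed), 11 and 7. With a second quantile normalization, 6 members were called between the tumors, and relative counts reversed in NEP against GNP (22, with 13 lower), in the tumor against progenitor difference (17, with 13 higher) and in NEP tumor against NEP (23, with 17 higher); the score between tumors turned to -0.0287, Mki67 in NEP against GNP was -0.59 (exact permutation p = 0.0571) and between tumors -0.23 (exact permutation p = 0.0286). The same setting moved the median of all genes in NEP against GNP from -0.11 to -0.21. With NEP tumor arrays 3 and 4 only, chosen after seeing the data, 4 were called between tumors. With NEP arrays 3 and 4 only, 14 were called relative in NEP against GNP and 11 in the tumor against progenitor difference (6 higher, reversed). With the score as a covariate, relative counts were 1, 6, 14 (between tumors), 5 (tumor against progenitor difference, 4 higher, reversed) and 5 (NEP tumor against NEP). With Mki67 as the yardstick they were 16 in NEP against GNP (10 lower, reversed), 17 between tumors, 15 in the tumor against progenitor difference (13 higher, reversed) and 18 in NEP tumor against NEP (14 higher, reversed). With the mitosis list they were 15 between tumors and 11 in the tumor against progenitor difference (8 higher, reversed), with the S phase list 15 in GNP tumor against GNP (9 higher, reversed), and with the mean of all probe sets 16 in the tumor against progenitor difference and 14 in GNP tumor against GNP (8 higher, reversed). With the replicate block, relative counts were 11 in NEP against GNP and 7 in NEP tumor against NEP, though same-numbered arrays share only a number (correlations of deviations from -0.16 to 0.07 for NEP and GNP). Without 1 array, the score in NEP against GNP ran from -0.97 to -0.78 and Mki67 from -0.80 to -0.57, where 4 against 3 cannot go below p = 0.0571 (exact permutation test); the score between tumors ran from -0.0232 to 0.0573, relative counts from 6 (without NSC array 2) to 10 in GNP against NSC, from 9 to 12 (without NEP array 4, 7 higher, reversed) in the tumor against progenitor difference and from 7 (without GNP array 3) to 10 in GNP tumor against GNP.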
